A study of Homo sapiens with 2 samples.

Results

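The snoRNA host genes are 34 of the 60616 genes measured in HSC-3 cells, an established human line from a squamous carcinoma of the tongue, a head and neck cancer. They were chosen by symbol, as the genes named SNHG with a number together with GAS5, ZFAS1, DANCR, EPB41L4A-AS1, CCDC183-AS1 and TMEM107. The group was proposed when differences of this series were already known, so every count below describes its members and none is a test. The study asked which genes change under a sublethal dose of a ferroptosis inducer. One library came from cells given the vehicle, 0.1% DMSO, and the other from cells of the same line given 1 µM FIN56 for 48 h, a small molecule that triggers death by lipid peroxidation. The labels give the time for FIN56 only. Each condition had 1 library and hence no replicate, so no p-value is given, and the treatment cannot be told apart from any other way in which the cultures differed. Bulk RNA also cannot tell fewer expressing cells from less RNA per cell. The 7 epithelial markers looked at, among them KRT5, KRT14 and TP63, all had an FPKM above 40 in both libraries, and PTPRC and CD3E of leukocytes were listed at 0. Of 8 markers of fibroblasts, leukocytes and endothelium, COL1A1 (4.25 and 2.19 FPKM with DMSO and FIN56), CD68 (57.27 and 24.58) and PDGFRB (0.2 and 0.1) were lower with FIN56, and their part in the results was not tested.

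Small nucleolar RNAs (snoRNAs) guide the chemical modification of ribosomal RNA. Box C/D snoRNAs (SNORD genes) direct methylation of riboses, box H/ACA snoRNAs (SNORA genes) direct pseudouridylation, and their Cajal body relatives (SCARNA genes) act on spliceosomal RNAs. Most human snoRNAs are cut out of the introns of a host transcript. In many hosts the spliced exons encode no protein of their own, and such RNAs are often removed by nonsense-mediated decay when ribosomes translate them. Many hosts also begin with a terminal oligopyrimidine (TOP) tract, a C followed by a run of pyrimidines that ribosomal protein mRNAs share and that couples their translation to growth signals. By GENCODE release 44, 33 of the 34 members are long non-coding RNA (lncRNA) genes and TMEM107 is protein coding. A snoRNA or SCARNA gene lay inside 32 of them on the same strand. None was listed inside CCDC183-AS1 or GAS5 in the annotation used, although GAS5 is a well known host of box C/D snoRNAs. Outside SNHG14, the hosts held 62 snoRNA and SCARNA entries, of which 57 lay in introns of the canonical transcript. The other 5 overlapped its exons, including SNORD118 in TMEM107, SNORA9 in SNHG15 and SNORA50C in SNHG25. Some loci, such as those of SNORA50C and SNORA16A, are listed under separate identifiers and are counted each time. SNHG14, the long transcript of the imprinted region of chromosome 15, held another 84.

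The start sites show how far the TOP feature extends in the group. RefSeq gives a promoter for 30 of the 34 hosts on GRCh38.p14. In 7 of these, the start base is a C followed by at least 4 pyrimidines on the sense strand, which is 23.3% against 4.07% of all 35116 promoters and 60.3% of 78 promoters of ribosomal protein genes. The windows of the 6 such hosts with an FPKM of at least 1 are shown because they carry this start, as 10 bases before and 20 bases from the start base on, with the pyrimidine run in capitals.
ZFAS1, chr20:49278632-49278661, plus strand: gccattcgttCTTTCgcgtctgcggtgccc
SNHG32, chr6:31834906-31834935, plus strand: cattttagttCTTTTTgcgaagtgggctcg
SNHG5, chr6:85678714-85678743, minus strand: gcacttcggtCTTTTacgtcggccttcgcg
SNHG12, chr1:28581854-28581883, minus strand: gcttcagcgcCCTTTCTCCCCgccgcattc
SNHG19, chr16:2155339-2155368, minus strand: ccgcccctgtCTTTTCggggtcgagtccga
SNHG4, chr5:139274091-139274120, plus strand: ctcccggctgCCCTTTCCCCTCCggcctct
For comparison, 3 hosts that were lower in the FIN56 library and the host with the highest FPKM ratio among those with an FPKM of at least 1 have no such run at the RefSeq start. Within 10 bases of that start, DANCR, SNHG8 and SNHG17 do have a C followed by 4 pyrimidines, and SNHG3 does not. In these windows only the start base is in capitals.
DANCR, chr4:52712384-52712413, plus strand: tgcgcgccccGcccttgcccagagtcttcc
SNHG8, chr4:118278752-118278781, plus strand: ctcggcctttCacattcgggaagcgtcggg
SNHG3, chr1:28505933-28505962, plus strand: gtgagtttctGattctctaactgcgcatgc
SNHG17, chr20:38435309-38435338, minus strand: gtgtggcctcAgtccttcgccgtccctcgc

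The answer depends on which transcript start is read. At the canonical GENCODE transcripts 4 of the 34 hosts (11.8%) had this start, against 2.75% of all genes and 75.9% of 79 ribosomal protein genes. These were ZFAS1, SNHG12, SNHG29 and GAS5. For SNHG12, SNHG29 and GAS5 the start lies at another base than in RefSeq, and the first 20 bases of the canonical transcript are given for SNHG29 and GAS5, again with the pyrimidine run in capitals.
GAS5, chr1:173867970-173867989, minus strand: CTTTTCgaggtaggagtcga
SNHG29, chr17:16439037-16439056, plus strand: CTTTTCattcccgttgttat
Within 10 bases on either side of the RefSeq start, a C followed by 4 pyrimidines was found in 60.0% of the hosts and in 33.5% of all promoters. A match is a string of letters and not a measured start site.

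More hosts were lower than higher in FIN56-treated cells. Levels are given as FPKM, the fragments assigned to a gene scaled for transcript length and library depth. The fold change is the ratio of FIN56 to DMSO on this FPKM scale. A gene is called higher at a ratio of 1.5 or more, after the threshold the study used for up-regulated genes. It is called lower at 1/1.5 or less, a mirror of that threshold chosen here. Of the 34 hosts, 33 had an FPKM above 0 in both libraries, and SNHG27 was listed at 0 in the FIN56 library from a single read in DMSO. Among the 33, 11 were lower (33.3%) and 2 were higher (6.06%). Over all 24454 genes above 0 in both libraries 17.3% were lower and 14.7% higher. When both libraries had to reach an FPKM of 1, 28 hosts remained, with 11 lower (39.3%) and 1 higher (3.57%). The shares were 6.77% and 3.87% of all 12638 genes at this level, and 16.1% and 7.39% of the 893 lncRNA genes at this level. The median log2 FPKM ratio of the 33 hosts was -0.23, a fold change of 0.851, beside 0.0 for all genes above 0 in both libraries. For the 28 hosts it was -0.33, beside 0.03 for all genes and -0.10 for lncRNA genes at the same level.

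**Figure D1:**
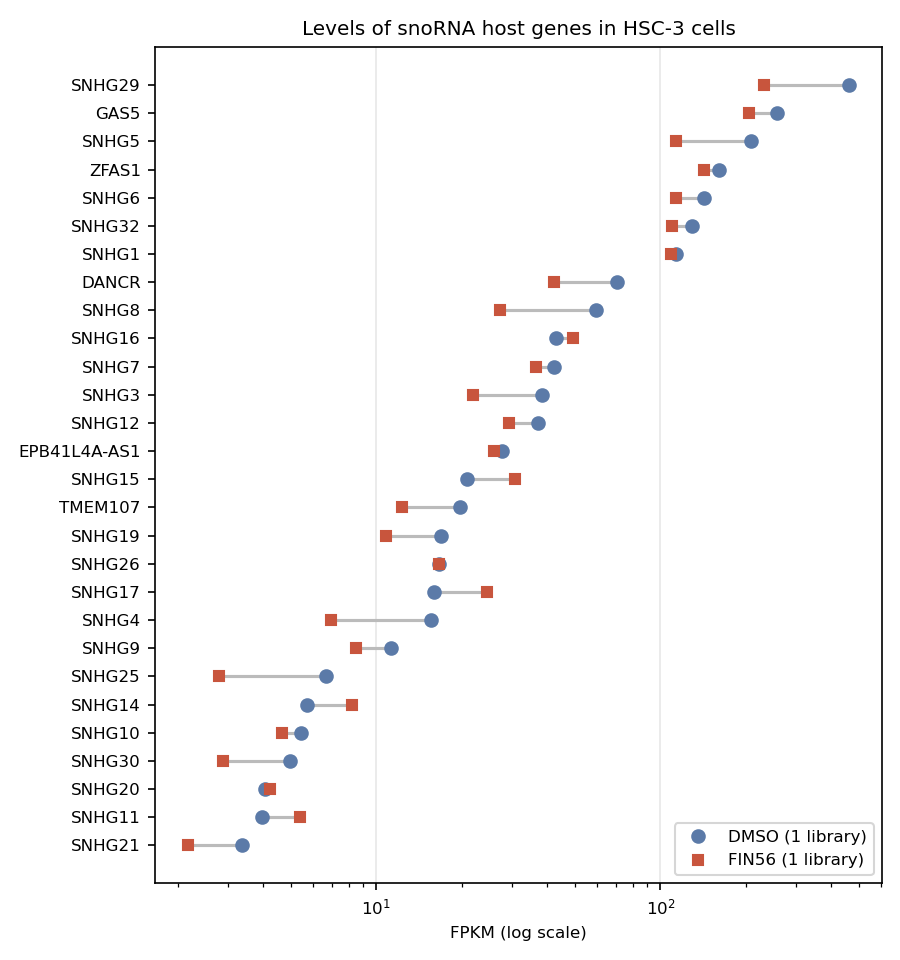
FPKM (x axis, log scale) of the 28 hosts that reached an FPKM of 1, ordered by their level with DMSO, with a circle for the DMSO library and a square for the FIN56 library. The 7 hosts above 100 FPKM in DMSO all had a smaller FPKM with FIN56, from SNHG29 at 461 and 231 to SNHG1 at 114 and 109.

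Levels spanned from 461 FPKM for SNHG29 to 0.02 for SNHG27 in the DMSO library. The FPKM values of all 34 hosts summed to 1944 with DMSO and 1400 with FIN56, a ratio of 0.720. SNHG29 alone made up a large part of this, and the sum without it went from 1482 to 1168, a ratio of 0.788. In expected counts, the hosts took 0.151% of the DMSO library and 0.115% of the FIN56 library. The order of the most abundant hosts also moved. SNHG29, GAS5 and SNHG5 came first with DMSO. With FIN56 SNHG29 at 231 and GAS5 at 205 still led, ZFAS1 followed at 143, and SNHG6, SNHG5, SNHG32 and SNHG1 lay together between 109 and 113.

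Each ratio is set beside the ratio of the expected counts, scaled by the library totals, with its exact Clopper-Pearson interval at 95%. The interval covers counting error only, as reads were not tagged by molecule, and leaves out the error of dividing reads among genes. It compares the libraries and not the conditions. Of the 33 hosts, it lay wholly below 1 for 20, wholly above 1 for 6, and included 1 for 7. Over all 24454 genes above 0 in both libraries, it lay below 1 for 5650 and above 1 for 5730. The interval narrows as counts rise, so these shares also depend on how well a gene was covered. All 11 lower hosts had an interval below 1. For 5 of them, SNHG29, SNHG3, SNHG4, SNHG8 and DANCR, the whole interval also lay below 1/1.5. Calls and intervals rest on the same reads, so an interval is no separate evidence for a call. The matching shares over all genes called lower were not counted.

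**Figure D2:**
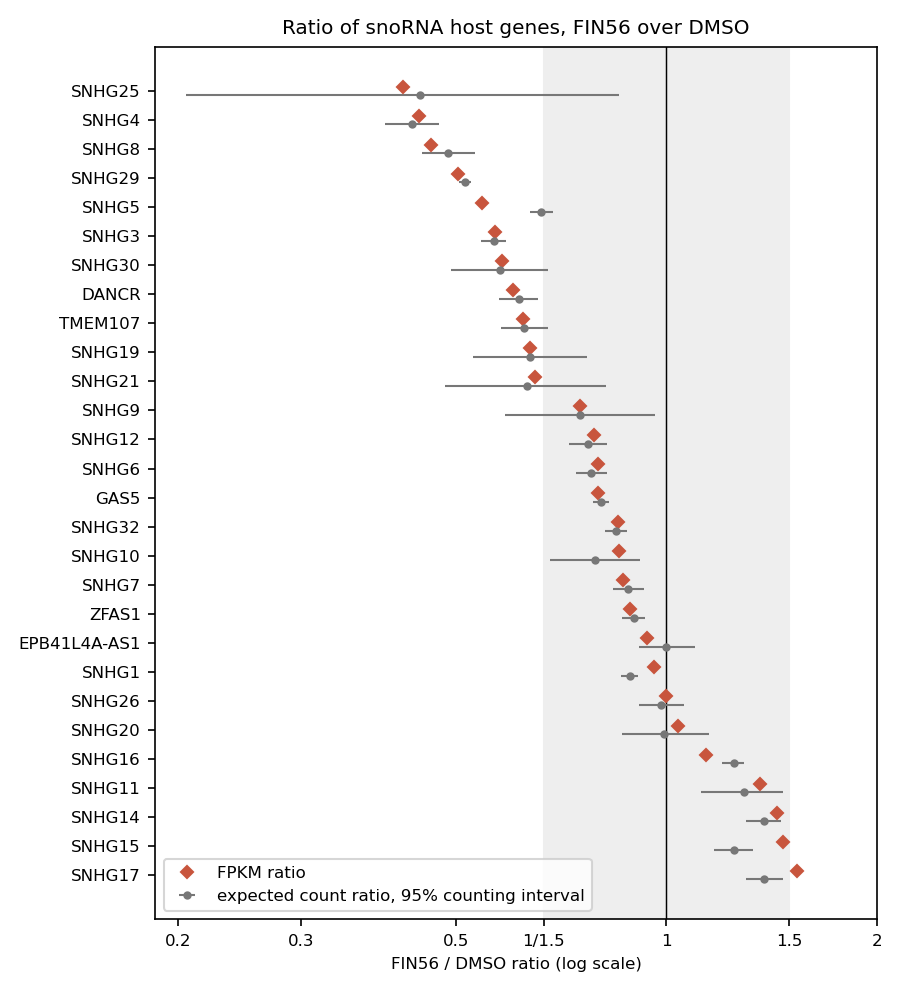
Ratio of FIN56 to DMSO (x axis, log scale) for the 28 hosts with an FPKM of at least 1. Diamonds are FPKM ratios, grey points are expected count ratios with their 95% counting intervals, and the shaded band runs from 1/1.5 to 1.5. Diamonds left of the band mark the 11 lower hosts, and SNHG17 at 1.54 is the only diamond right of it.

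Hosts of box C/D snoRNAs included the most abundant members. Of the 12 with an FPKM of at least 1, a SNORD gene inside and no SNORA gene, 5 were lower and 0 higher, with a median log2 ratio of -0.28. SNHG29 (ENSG00000175061, chr17:16438767-16480249, plus strand), which holds SNORD49A, SNORD49B and SNORD65, had an FPKM of 461.32 with DMSO and 231.37 with FIN56. Its expected counts were 28569.89 and 15310.93, a count ratio of 0.515 with an interval of 0.505 to 0.525. The FIN56 library thus held less of this RNA by both measures, with an FPKM ratio of 0.502. LRRC75A overlaps it on the opposite strand, and without a stated strand setting reads of the pair may not be separable.

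SNHG5, host of SNORD50B on chromosome 6 (85650491 to 85678932, minus strand), had an FPKM of 207.92 and 113.09, a ratio of 0.544. Its counts went less far apart, from 6638.0 to 4577.51, a count ratio of 0.662 with an interval of 0.638 to 0.688. SNHG5 was therefore lower by both measures but sat at the edge of the threshold by counts. TMEM107, which encodes a membrane protein of the ciliary transition zone and carries SNORD118 (the U8 snoRNA, used in large subunit RNA processing) in an exon, had 19.77 and 12.3 FPKM, from whole counts of 1675 and 1092. The counting interval of TMEM107 was 0.58 to 0.676. Smaller hosts were lower too. SNHG30, host of SNORD7, had 421 counts with DMSO and 253 with FIN56 (FPKM ratio 0.582), and SNHG19, host of SNORD60, had 289 and 192 (0.638).

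Other abundant box C/D hosts differed less. GAS5 (growth arrest specific 5, named for its build-up in arrested cells and not among the 12) had an FPKM of 257.59 with DMSO and 205.43 with FIN56, a ratio of 0.798. Its count interval of 0.785 to 0.828 excluded both 1 and 1/1.5. ZFAS1, host of SNORD12, SNORD12B and SNORD12C, had 161.1 and 142.9 FPKM (ratio 0.887). SNHG6 and SNHG32 had ratios of 0.797 and 0.851, and SNHG1, the first described host whose exons encode no protein, had 0.96. All 5 of these were below 1 with intervals below 1, and none reached the threshold. SNHG26 had 16.6 and 16.58 FPKM, a ratio of 0.999 with a count interval of 0.914 to 1.06.

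A pair of box C/D hosts went the other way. SNHG16, host of SNORD1A, SNORD1B and SNORD1C, had 42.97 FPKM with DMSO and 49.08 with FIN56, a ratio of 1.14, and its count interval was 1.2 to 1.29. SNHG14 had 5.69 and 8.2 FPKM from 1893.73 and 2712.52 counts, a ratio of 1.44 with a count interval of 1.3 to 1.46. It overlaps SNRPN on the same strand, and SNRPN itself had a ratio of 0.713.

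Among the hosts of box H/ACA snoRNAs were both the lowest well covered ratio and the highest. Of the 10 with an FPKM of at least 1, a SNORA gene inside and no SNORD gene, 4 were lower and 1 higher, with a median log2 ratio of -0.31. SNHG4 (chr5:139274102-139284899, plus strand), host of SNORA74A and SNORA74D, had 15.6 FPKM with DMSO and 6.9 with FIN56. Its counts were 1558.41 and 701.24, and the count ratio of 0.432 had an interval of 0.395 to 0.473. SNHG4 shares its strand and part of its locus with MATR3, a nuclear matrix protein gene, which had an FPKM ratio of 0.759. SNHG8, host of SNORA24 on chromosome 4, had 59.28 and 27.25 FPKM, a ratio of 0.46. The counts of SNHG8 were 1542.24 and 782.15, with an interval of 0.446 to 0.531.

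SNHG3, which carries the H/ACA snoRNAs SNORA73A and SNORA73B, had 38.43 FPKM with DMSO and 21.81 with FIN56, a ratio of 0.568, and a count interval of 0.542 to 0.59. The gene RCC1, which encodes the exchange factor of the GTPase Ran, overlaps SNHG3 on the same strand and had a ratio of 0.76. DANCR, an RNA known for holding back the differentiation of epidermal progenitors and host of SNORA26, had 70.33 and 42.34 FPKM, a ratio of 0.602. Its counts of 2395.19 and 1530.08 gave an interval of 0.575 to 0.655. SNHG7 (ratio 0.865) and SNHG9 (0.752) were below 1 without reaching the threshold, and EPB41L4A-AS1, at 27.63 and 25.9 FPKM, had a count interval of 0.913 to 1.1.

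SNHG17 was the only host with an FPKM of at least 1 that was called higher. This host of the SNORA71 genes (chr20:38419638-38435409, minus strand) had 15.98 FPKM with DMSO and 24.56 with FIN56, a ratio of 1.54. By counts, 1621.04 and 2330.97, the ratio was 1.38 with an interval of 1.3 to 1.47, which stays under 1.5. Its neighbour SNHG11 (chr20:38446343-38450940, plus strand), host of SNORA71E and SNORA60, had 3.97 and 5.38 FPKM, a ratio of 1.36. SNHG15, host of SNORA9, lay just outside the threshold at 1.47, from 20.88 and 30.75 FPKM, and its count ratio was 1.25. These hosts were above 1 by both measures, and by counts none reached 1.5.

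The remaining hosts rested on fewer reads or on mixed content. SNHG12 holds both kinds of snoRNA and had 37.18 and 29.27 FPKM (ratio 0.787). SNHG25 also holds both, and its ratio of 0.42, the lowest of all 33, came from 29.17 and 13.45 expected counts with a wide interval of 0.205 to 0.855. Of the scaRNA hosts, SNHG21 was lower with 3.36 and 2.18 FPKM (0.649), which was the called value nearest to 1/1.5. SNHG10 had a ratio of 0.856 and SNHG20 of 1.04. The 6 hosts below 1 FPKM in both libraries were SNHG28, SNHG22, SNHG31, CCDC183-AS1, SNHG18 and SNHG27. SNHG31 was called higher at 1.67 from 19 and 36 counts, with an interval of 1.02 to 3.36. Next outside the lower threshold stood SNHG22 at 0.722, from 4.49 and 4 counts.

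Counts and FPKM parted ways in several hosts because the effective length that RSEM used was not the same in both libraries. RSEM, the authors' quantifier, estimates this length from the mix of isoforms it assigns to a gene, so a changed length marks a changed estimate of that mix. It was recovered here from the expected count, the FPKM and the library total. In 18 of the 28 hosts it differed by no more than 5% between the libraries, and in 10 it moved further. SNHG5 had the largest shift upward, from 455 bases with DMSO to 554 with FIN56, a ratio of 1.22. SNHG15 had the largest shift downward, from 1140 to 964 bases (0.846), followed by SNHG17 from 1445 to 1299 (0.899). In SNHG5 the longer estimate set the FPKM ratio below the count ratio, and in SNHG15 and SNHG17 the shorter estimate set it above. SNHG16 moved to a ratio of 1.09, SNHG1 to 0.923 and SNHG10 to 0.921. For GAS5, ZFAS1, SNHG29, SNHG3 and DANCR the length ratio lay between 0.997 and 1.03. GENCODE release 44 lists 89 transcripts for SNHG5, 118 for SNHG17 and 91 for GAS5. The isoforms themselves were not analysed here.

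**Figure D3:**
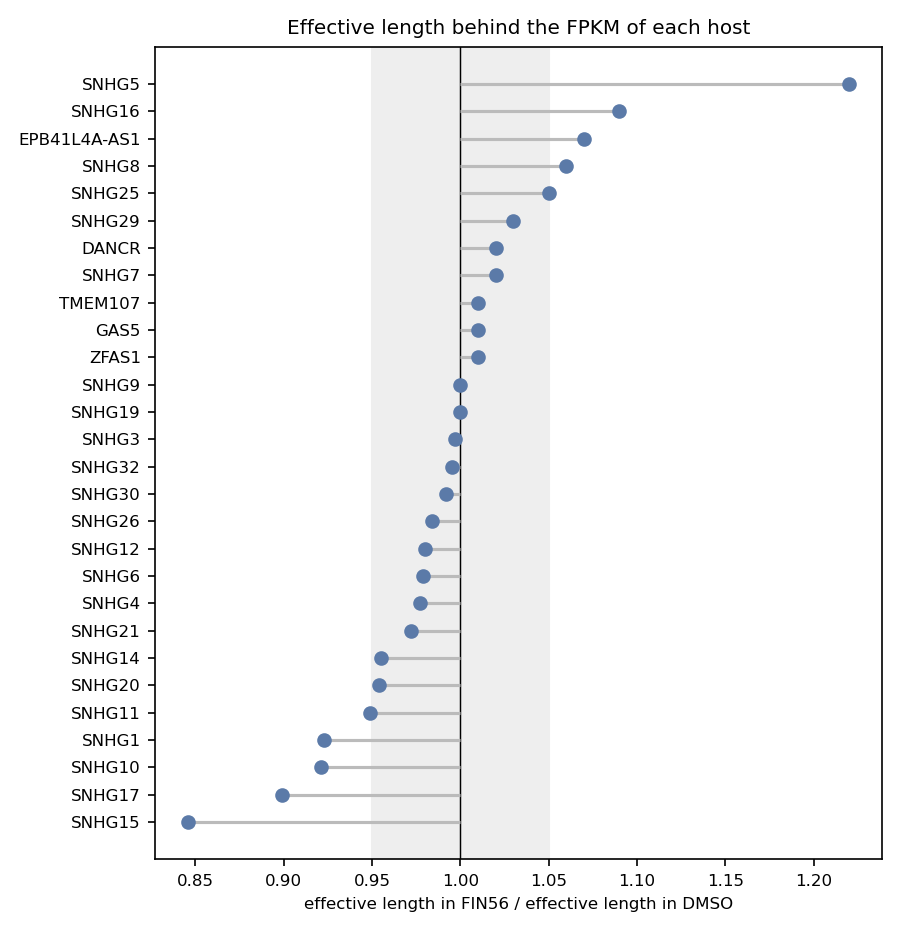
Effective length with FIN56 divided by that with DMSO (x axis) for the 28 hosts with an FPKM of at least 1, with differences of up to 5% shaded. SNHG5 stands far right at 1.22, and SNHG15 at 0.846 and SNHG17 at 0.899 are farthest left.

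The snoRNAs carried by these hosts were barely sampled. The libraries were made with an mRNA kit, which selects polyadenylated RNA, and mature snoRNAs carry no poly(A) tail. Of the 146 snoRNA and SCARNA entries inside hosts that the files list, 125 had 0 expected counts in both libraries and 3 had at least 20 in both together. SNORA73B inside SNHG3 had 41 counts with DMSO and 45 with FIN56, a count ratio of 1.05 with an interval of 0.675 to 1.65, beside a ratio of 0.568 for its host. SNORA50C inside SNHG25 had 31.83 and 17.55 (0.53), and SNORA71B inside SNHG17 had 9 and 27 (2.88). Reads on these rows cannot be told apart from reads of the host transcript. Over all 553 snoRNA and scaRNA rows, 444 were at 0 in both libraries, and SNORD17, the 1 row with at least 100 counts in both together, had 51 and 56.

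Other genes of the same machinery did not share a single direction. The 79 ribosomal protein mRNAs, classic TOP transcripts, had a median log2 FPKM ratio of -0.29, with 77 below a ratio of 1 but only 4 called lower and 0 higher. RPS3 had the lowest ratio at 0.58, and FAU the highest at 1.05. The 16 other TOP mRNAs, mostly translation factors, also had a median of -0.29, with 1 lower, EIF3L at 0.657, and 0 higher. EIF3H stood highest among them at 1.01. The hosts had a similar median and a wider spread, from -1.25 to 0.62 on the log2 scale among the 28, against -0.79 to 0.07 for the ribosomal protein genes.

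The 19 proteins that bind or assemble snoRNAs had a median of 0.12, with 15 above a ratio of 1. PIH1D1, an assembly factor, was lower at 0.621, and none was higher. Of the core proteins of box C/D particles, FBL (fibrillarin, the methyltransferase) had a ratio of 0.833, NOP56 of 1.11 and NOP58 of 1.44, whereas DKC1 (dyskerin, the pseudouridine synthase) had 1.01. None of these 4 reached the threshold. The 26 protein-coding genes known as snoRNA hosts had a median of 0.04 and 0 calls in either direction, from EEF2 at 0.72 to PPAN at 1.46, and NOP56, NOP58 and DKC1 are hosts as well and so stand in both lists. The 18 nonsense-mediated decay factors had a median log2 FPKM ratio of 0.11, and none was lower. The helicase UPF1 had a ratio of 1.08, the kinase SMG1 1.14, and SMG6, the endonuclease of the pathway, 0.721. All of these genes come from the same libraries as the hosts, and the activity of the decay pathway was not measured.

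**Figure D4:**
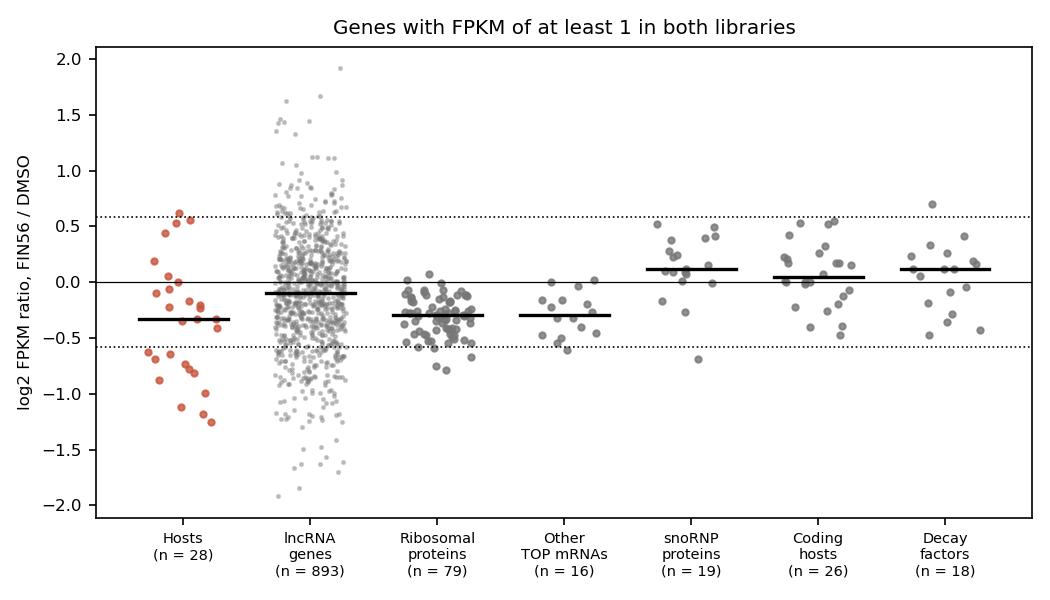
Log2 FPKM ratio, FIN56 over DMSO (y axis), of each gene that reached an FPKM of 1 with DMSO and with FIN56, as 1 point per gene in 7 groups, with the group median as a bar and dotted lines at ratios of 1.5 and 1/1.5. The hosts, at a median of -0.33, spread from -1.25 to 0.62, while the ribosomal protein genes cluster around -0.29. The lncRNA genes spread further than the hosts, from -1.92 to 1.92.

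The 7 hosts with a TOP start at the RefSeq position were all at or below a ratio of 1, with SNHG18, at 0.04 FPKM in both libraries, exactly at it. The 6 with an FPKM of at least 1 ran from SNHG4 at 0.442 through SNHG5 at 0.544, SNHG19 at 0.638, SNHG12 at 0.787 and SNHG32 at 0.851 to ZFAS1 at 0.887, a median log2 ratio of -0.50, with 3 lower. The 18 without it at this level ran from -1.12 to 0.62 around a median of -0.22, with 7 lower and 1 higher. Both ranges overlap widely, and by the canonical transcripts the medians were -0.34 for 4 hosts with this start and -0.28 for 24 without.

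Coding genes that start within 1000 bases of a host on the opposite strand were listed for 9 hosts. RPS2, a ribosomal protein gene, starts 54 bases from SNHG9, and their FPKM ratios were 0.74 and 0.752. TRAF7, which encodes a ubiquitin ligase, starts 293 bases from SNHG19 and had 37.23 and 22.3 FPKM, a ratio of 0.599 beside 0.638 for the host. ZBTB37 had 0.701 beside 0.798 for GAS5, and the helicase gene ZNFX1 0.924 beside 0.887 for ZFAS1. SLC3A2, the heavy chain of the cystine transporter that supplies glutathione synthesis, starts 51 bases from SNHG1. It had 401.56 FPKM with DMSO and 438.33 with FIN56, a ratio of 1.09, and its count interval ran from 1.08 to 1.11. SNHG1 had an FPKM ratio of 0.96 and a count ratio of 0.886, with a count interval of 0.862 to 0.911. By counts, this pair was thus on opposite sides of 1 beyond counting error. The other pairs, RABL6, BARD1, SEMA5A and ACAA2 with CCDC183-AS1, SNHG31, SNHG18 and SNHG22, rested on hosts below 1 FPKM.

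**Figure D5:**
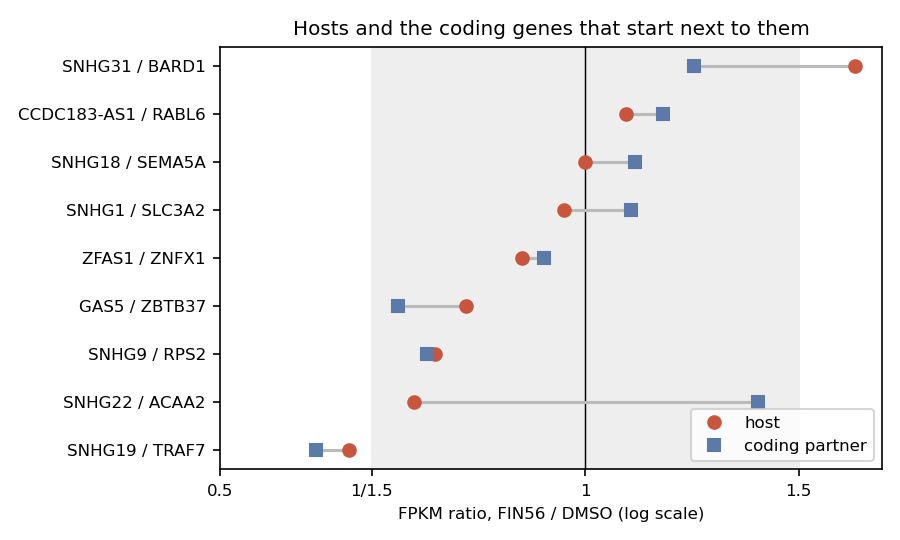
FPKM ratio, FIN56 over DMSO (x axis, log scale), of 9 hosts (circles) and of the coding gene that starts within 1000 bases on the other strand (squares), with the band from 1/1.5 to 1.5 shaded. SNHG9 and RPS2 nearly coincide at 0.752 and 0.74, and SNHG19 and TRAF7 are both left of the band.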

How the data were processed

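Each of the 2 libraries, DMSO and FIN56, had 1 column in every table, and all 8 columns were matched by title. By the methods and the submitters' processing notes, reads were checked with FastQC 0.11.7, aligned with STAR 2.6.1a to GRCh38 (release 94) and quantified with RSEM 1.3.1. The labels name a stranded mRNA kit, and whether counting used strand is not given in the sources used here. The authors left their expected counts without normalization, and these summed to 70184517 and 73062209. In the deposited FPKM, counts are scaled for depth and effective length. The deposited TPM is scaled to 1 total for every library. The authors' rlog table, from DESeq2 1.26.0, is on a log2 scale after shrinkage. In the hosts, 27 of 34 had expected counts that were not whole in at least 1 library, a sign of reads divided with other genes.

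The FPKM ratio was computed over genes above 0 in both libraries, compared in whole hundredths, with intervals from rounded expected counts. With 1 library per group no test was made. The design, the gene lists and the members were chosen with earlier results of these data known, and the lists were written from general knowledge. Named hosts are those with an FPKM of at least 1 in either library. Of other lists the highest and lowest ratio among genes with at least 100 counts are named, with UPF1, SMG1, FBL, NOP56, NOP58 and DKC1. The result for 1 gene that this rule selects is not reported here. Values of same-strand overlapping genes were added after the data were seen, as were those of the hosts below 1 FPKM that were named with values, SNHG22 and SNHG31, those of SNHG27, and the canonical transcript starts. Alternatives were TPM, rlog, library totals, edgeR 4.0.16 TMM, DESeq2 1.42.0 median of ratios, minimum levels, pseudocounts and a threshold of 2. Positions came from GENCODE release 44, start windows from RefSeq. All steps ran in Python 3.11.15 and R 4.3.3. Only the calls by ratio and the counting intervals were tested on simulated counts.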

Additional observations from a re-analysis of the deposited data

How the results depend on the processing

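The 11 lower hosts became 3 of 33 at a threshold of 2, a share near the 9.75% of all 24454 genes. Among hosts with whole counts above 0 in both libraries, 3 of 6 were lower, beside 18.7% of all such genes. With rlog values, which draw the libraries together, 0 hosts and 16 genes in all were lower. Under the other settings run, 10 or 11 hosts stayed lower, beside 2.9% to 17.2% of all genes. Of these settings, median of ratios lost SNHG5 and a pseudocount of 1 FPKM lost SNHG21. The 2 higher hosts became 1 with library totals, TMM, median of ratios, a minimum FPKM of 1, a pseudocount of 1 or 0.1 FPKM and whole counts only, and 0 with rlog values and a threshold of 2. TPM made them 3 by adding SNHG15. Over all genes, 15.6% were higher by TPM and 8.54% at a threshold of 2. SNHG17 was below 1.5 by each of the count scalings. The median of -0.23 became -0.06 with rlog values and was between -0.33 and -0.20 under the others. Among the 28 hosts with an FPKM of 1 or more, no called host changed sign. Of the uncalled hosts, EPB41L4A-AS1, SNHG20 and SNHG26 did. Of 252 values of these 28 hosts, 210 moved by less than their counting error. The 210 include the values under a minimum FPKM or a minimum count. Those settings only drop genes and could not move a ratio. No paired analysis was possible because DMSO and FIN56 are 1 library each, and for the same reason no library could be left out.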
